A study of Homo sapiens with 3 samples.

Results

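The 9 genes described here are the receptors NOTCH1, NOTCH2 and NOTCH3, the ligands JAG1, JAG2, DLL1 and DNER, and the targets HES1 and HEY1, out of 23277 gene symbols measured. They were chosen by name, with the differences between these libraries already known, so their values are a description and carry no test. The cells were CaSki, an established human line from an epidermoid cervical carcinoma, and total RNA was sequenced in 3 groups of 1 library each. The first group held the empty retroviral vector pMSCV and received an siRNA against GFP, which is the control siRNA. The second held FLAG-tagged NANOG in pMSCV and received the same GFP siRNA, and the third held FLAG-tagged NANOG and received an siRNA against HDAC1. NANOG, a homeobox protein, is best known from embryonic stem cells, and HDAC1 removes acetyl groups from histones. Whether the transduced cells were 1 clone or a pool is not given in the sources used here. No group with empty vector and HDAC1 siRNA is analysed here.

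In Notch signalling a ligand on one cell, Jagged or Delta-like, binds a Notch receptor on its neighbour. ADAM proteases and then gamma-secretase cut the receptor, and its freed intracellular domain enters the nucleus, binds the DNA-binding protein RBPJ and, with Mastermind proteins, turns on targets such as the HES and HEY repressors. Without that domain RBPJ is bound by corepressor complexes that contain histone deacetylases. In stratified squamous epithelium, the tissue type this carcinoma comes from, Notch signalling is known for its part in the switch from basal to differentiated cells. DNER is a transmembrane protein with EGF-like repeats, best known from neurons, that has been described as a noncanonical Notch ligand.

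The stretch before the HES1 transcription start is shown because HES1 was the Notch target that differed most between these libraries, and that of its paralog HES4 because HES4 was the most abundant HES gene and differed little. Each run is the 250 bases before the RefSeq start on build GRCh38.p14, read 5′ to 3′ on the gene's strand. The HES1 run lies at chr3:194135898-194136147 on the plus strand and the HES4 run at chr1:1000098-1000347 on the minus strand. Capitals mark TGGGAA, the core of the RBPJ site, on either strand, and GTGTGAA on either strand, a string that was added after the HES1 run had been read.
HES1: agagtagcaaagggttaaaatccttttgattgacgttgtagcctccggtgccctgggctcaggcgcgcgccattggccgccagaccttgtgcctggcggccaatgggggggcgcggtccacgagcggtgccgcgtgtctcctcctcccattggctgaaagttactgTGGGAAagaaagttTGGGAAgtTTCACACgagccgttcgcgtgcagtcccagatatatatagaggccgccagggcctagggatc
HES4: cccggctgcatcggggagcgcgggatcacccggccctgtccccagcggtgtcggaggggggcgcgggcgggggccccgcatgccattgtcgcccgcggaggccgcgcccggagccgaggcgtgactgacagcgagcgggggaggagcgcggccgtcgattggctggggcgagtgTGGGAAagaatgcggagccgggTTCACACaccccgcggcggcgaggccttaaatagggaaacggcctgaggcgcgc

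The HES1 run held TGGGAA at 2 positions, starting 84 and 70 bases before the start, and GTGTGAA on the other strand, starting 62 bases before it. The HES4 run held 1 TGGGAA, 76 bases before the start, and 1 GTGTGAA on the other strand, 54 bases before it. Of 35116 windows of this length in the table, 20.8% held TGGGAA at least once on either strand, 2.90% held it at 2 or more positions, and 2.48% held GTGTGAA. HES1 also held 2 matches of CACGCG (9.72% of windows had at least 1) and 3 of CACNAG (32.0% of windows), both letter strings of the kind that HES proteins bind. All strings were searched on both strands, and 1 of the CACNAG matches in HES1 shares letters with the GTGTGAA match. Windows were read for 6 of the 9 genes: none was read for DNER and DLL1, and HEY1 was left out of the search. NOTCH1, NOTCH2, NOTCH3, JAG1 and JAG2 held neither TGGGAA nor GTGTGAA in theirs. The window of NRARP, a Notch target described below, was searched as well and held none of these strings. A match describes letters only, and binding of RBPJ or NANOG was not analysed here.

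The libraries are compared in FPKM, fragments scaled to transcript length and to mapped fragments, so levels of different genes can be set side by side. The values summed to between 600749 and 681947 FPKM per library. Their fragment numbers are unknown. Among genes above 0 and below 0.3 FPKM in both libraries compared, the most frequent ratio was between 0.981 and 0.998. Only ratios within 0.3 of 0 on the log2 scale were searched, so a larger difference in depth could not have shown. Each group being 1 library, the values stand without replicates, and p-values, errors and intervals are not given. NANOG was at 0.0357 FPKM in the empty vector library and at 298 and 325 FPKM in the NANOG libraries. HDAC1 was at 19.02 FPKM with empty vector, 108 FPKM with NANOG and GFP siRNA and 12.8 FPKM with NANOG and HDAC1 siRNA, so that the comparison of siRNAs also carries the high HDAC1 value of its control library. Epithelial markers matched the label, with all 8 at a mean of 1 FPKM or more, whereas none of 5 fibroblast, 4 endothelial and 5 blood cell markers reached that mean. COL1A2, at 0.948 FPKM in the NANOG GFP siRNA library and 0.0198 and 0.00649 FPKM in the others, made the fibroblast markers differ most, with sums of 0.0617 to 0.993 FPKM. In bulk RNA, fewer cells of a kind and less RNA per cell cannot be told apart.

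DNER and HES1 had the largest differences among these genes. Both were higher in the 2 NANOG libraries than with empty vector, and lower with HDAC1 siRNA than with GFP siRNA, an order of libraries that JAG1 shared at a smaller size. DNER was 7.09-fold and HES1 2.90-fold as high with NANOG and GFP siRNA as with empty vector, in plain ratios of FPKM. The receptors NOTCH1 and NOTCH2 and the ligands JAG1 and JAG2 lay within 1.5-fold in every comparison. NOTCH3, DLL1 and HEY1 were below 1 FPKM in all 3 libraries.

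**Figure D1:**
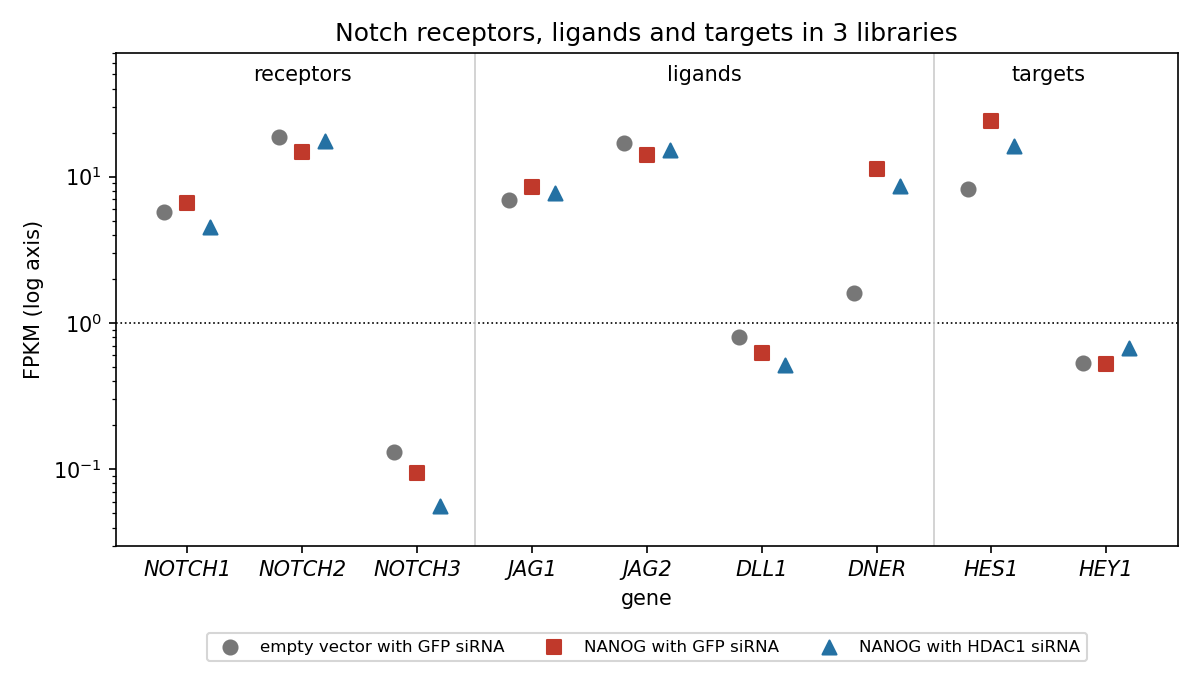
FPKM (log axis) of the 9 genes, 1 point per library: circles for empty vector with GFP siRNA, squares for NANOG with GFP siRNA, triangles for NANOG with HDAC1 siRNA; the dotted line is 1 FPKM. DNER and HES1 have their circle well below the square and triangle, while the 3 points of NOTCH1, NOTCH2, JAG1 and JAG2 lie close together.

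Differences are given on the scale of log2(FPKM + 1), which adds 1 FPKM before the logarithm and understates the change of low genes. Counts take in genes that averaged 1 FPKM or more across libraries. That kept 11398 genes, 6 of the 9 described here among them, and a difference of 1 on this scale is called 2-fold. NOTCH3, DLL1 and HEY1 were below the minimum and enter no count.

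Among receptors, NOTCH2 was the most abundant in every library. It was at 18.7 FPKM with empty vector, 14.7 FPKM with NANOG and GFP siRNA and 17.5 FPKM with NANOG and HDAC1 siRNA, so it differed by -0.32 between NANOG and empty vector and by 0.24 between the siRNAs in NANOG cells. The NANOG GFP siRNA library was thus the lowest for this gene. NOTCH2 shares its first exons with the partial copy NOTCH2NL, which stood at 5.51, 4.49 and 6.01 FPKM in the same order of libraries, so how fragments were split between the pair is uncertain. NOTCH1, the receptor best studied in keratinocytes, ran the other way: 5.72 FPKM with empty vector, 6.62 FPKM with NANOG and GFP siRNA and 4.52 FPKM with HDAC1 siRNA. Its differences were 0.18 and -0.47, and with HDAC1 siRNA it lay below both other libraries. The 2 receptors kept their order in all libraries, with NOTCH2 holding 76.1%, 68.6% and 79.3% of the summed FPKM of the receptor genes.

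NOTCH3, a receptor most abundant in vascular smooth muscle, was at 0.132 FPKM with empty vector, 0.0949 FPKM with NANOG and GFP siRNA and 0.0560 FPKM with NANOG and HDAC1 siRNA. These are under 1% of the receptor sum in each library (0.538%, 0.443% and 0.253%), and the number of fragments behind them is unknown. NOTCH4 was listed at 0 in all 3 libraries. It lies in the major histocompatibility region, and of its nearest protein-coding genes, 15 on each side in RefSeq order, 16 of 30 were also listed at 0 in all libraries, against 17.1% of 16982 protein-coding genes. The 16 include ATF6B and RNF5, which most cells use, so the 0 of NOTCH4 cannot be read as its level.

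Among the ligands JAG1, JAG2, DLL1 and DNER, JAG2 was the highest in each library. It was at 17.0 FPKM with empty vector, 14.1 FPKM with NANOG and GFP siRNA and 15.1 FPKM with HDAC1 siRNA. JAG1, the Jagged ligand that is itself a Notch target in some cells, was at 6.94, 8.54 and 7.76 FPKM in that order. The 2 Jagged genes differed in opposite directions between NANOG and empty vector, at -0.26 for JAG2 and 0.26 for JAG1, each within 1.5-fold. With HDAC1 siRNA both lay between the other libraries, at 0.10 for JAG2 and -0.12 for JAG1 against GFP siRNA. The JAG1 value turned to 0.04 after rescaling to TPM. DLL1, a canonical Delta-like ligand, was at 0.804, 0.627 and 0.519 FPKM, lowest with HDAC1 siRNA.

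DNER had the largest difference of the 9 genes. It was at 1.59 FPKM with empty vector, 11.3 FPKM with NANOG and GFP siRNA and 8.58 FPKM with NANOG and HDAC1 siRNA. Both NANOG libraries were above the empty vector library, and the HDAC1 siRNA library was the lower of the pair. The log2(FPKM + 1) difference was 2.25 for NANOG against empty vector, -0.36 for HDAC1 siRNA against GFP siRNA and 1.88 for NANOG with HDAC1 siRNA against empty vector. It ranked 10 of 11398 genes from the highest in both comparisons with empty vector, which share that library. Its order among 6 ligand genes, a set without the Delta-like protein gene DLK2, was different too. With empty vector DNER was number 4 of 6 ligand genes (JAG1, JAG2, DLL1, DLL3, DLL4 and DNER), with 5.22% of their summed 30.6 FPKM. With NANOG and GFP siRNA it came second, with 29.3% of 38.5 FPKM, and with HDAC1 siRNA it was again second, with 23.4% of 36.6 FPKM.

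**Figure D2:**
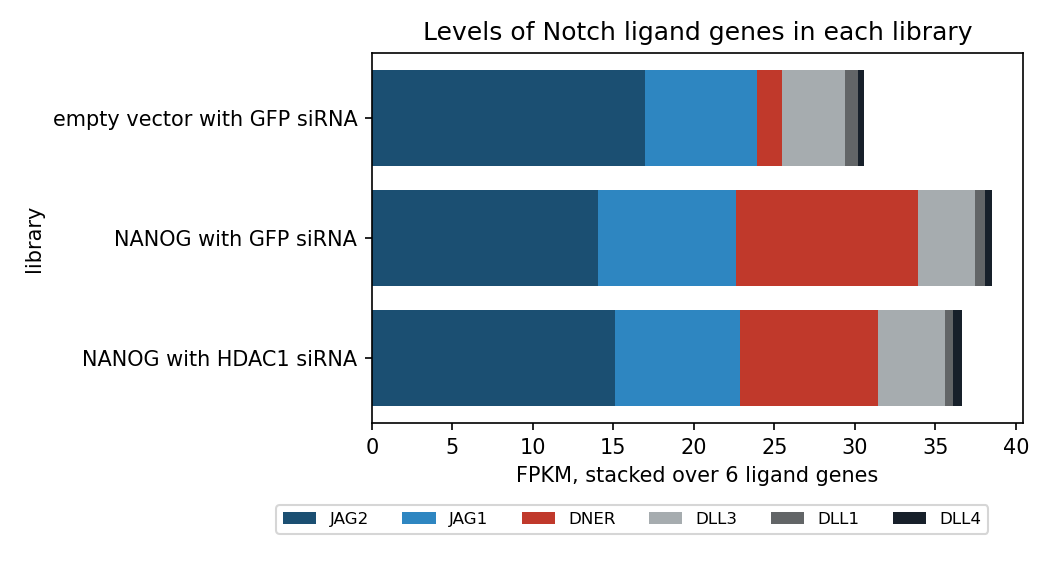
FPKM of 6 Notch ligand genes stacked in 1 bar per library. The DNER segment grows from 1.59 FPKM with empty vector to 11.3 and 8.58 FPKM in the NANOG libraries, while the segments of JAG2 and JAG1 stay of like length.

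DNER is best known from neurons, so neuronal markers were read beside it. Their sum over 11 genes was 87.9 FPKM with empty vector, 127 FPKM with NANOG and GFP siRNA and 132 FPKM with HDAC1 siRNA, and 4 of the 11 had a mean of at least 1 FPKM. Most of each sum was the tubulin gene TUBB3 (63.6, 92.1 and 96.3 FPKM) and the calcium-binding protein gene CALB1 (14.8, 22.9 and 26.4 FPKM). The microtubule protein gene MAP2 was at 6.33, 9.14 and 6.19 FPKM and the synaptic gene SNAP25 at 2.78, 2.60 and 2.48 FPKM, so neither was above its empty vector level in both NANOG libraries. The neuronal genes ELAVL4 and PVALB were listed at 0 in all 3 libraries, and the RNA-binding protein gene RBFOX3 was at 0.0275, 0.108 and 0.0405 FPKM. The part of these genes in the DNER difference was not tested.

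Among targets, HES1, a basic helix-loop-helix repressor and the classical direct Notch target, was at 8.26 FPKM with empty vector, 23.9 FPKM with NANOG and GFP siRNA and 16.1 FPKM with NANOG and HDAC1 siRNA. The empty vector library was the lowest and the HDAC1 siRNA library lay in between. The log2(FPKM + 1) differences were 1.43 for NANOG against empty vector, -0.54 for HDAC1 siRNA against GFP siRNA and 0.88 for NANOG with HDAC1 siRNA against empty vector. In the first of these HES1 ranked 29 of 11398 genes from the highest, and in the second it ranked 198 from the lowest. Its share of the summed FPKM of 10 HES and HEY genes was 14.8% with empty vector, 34.3% with NANOG and GFP siRNA and 24.1% with HDAC1 siRNA, second to HES4 each time. HEY1, a related repressor that acts downstream of Notch in vessels and other tissues, was at 0.536, 0.526 and 0.670 FPKM. It differed by -0.01 between NANOG and empty vector, a value that turned to 0.01 after rescaling to equal upper quartiles.

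**Figure D3:**
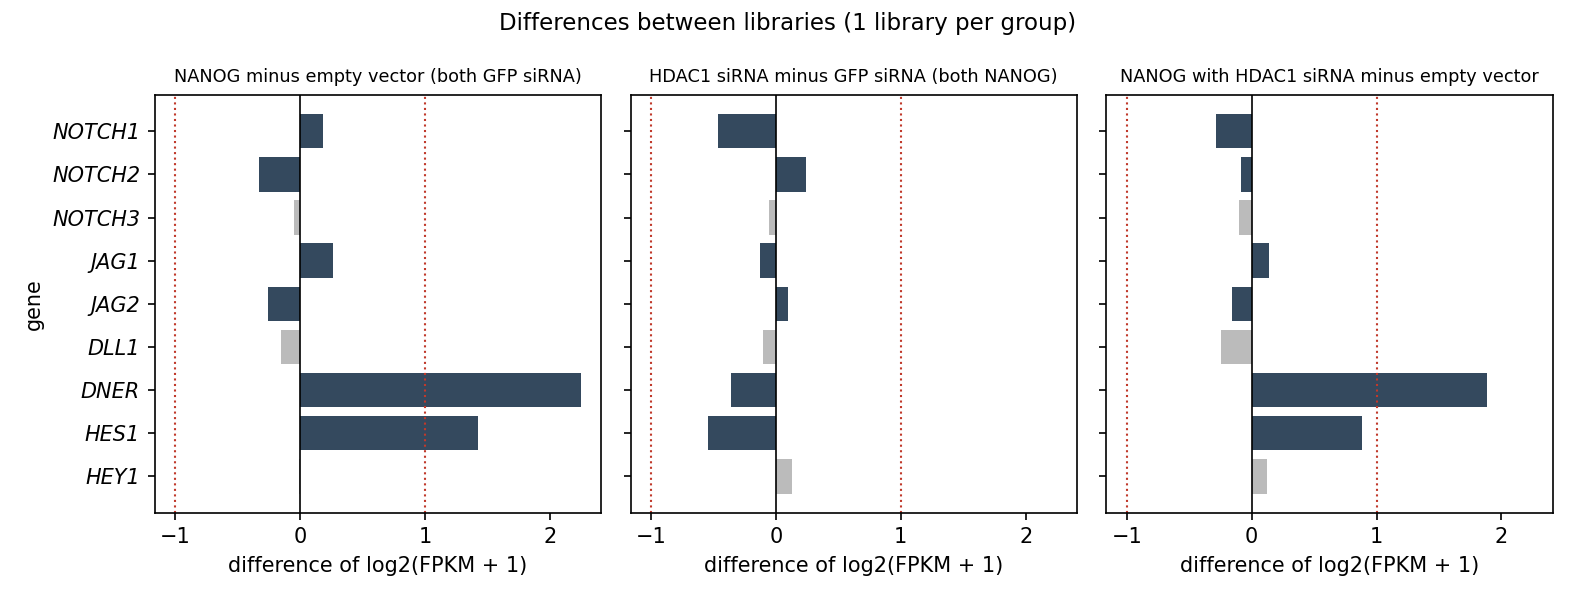
Difference of log2(FPKM + 1) for each gene in the 3 comparisons, 1 bar per gene; grey bars are genes with a mean below 1 FPKM, and dotted lines mark 2-fold. DNER (2.25) and HES1 (1.43) pass the line for NANOG against empty vector, no gene does for HDAC1 siRNA against GFP siRNA, and DNER (1.88) does for NANOG with HDAC1 siRNA against empty vector.

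For NANOG against empty vector, 2 of the 6 genes that passed the minimum, DNER and HES1, were called 2-fold higher and 0 were called lower, where 0.676% of all genes were that much higher and 1.20% that much lower. At 1.5-fold the counts were again 2 and 0, with 3.47% of all genes higher and 5.25% lower. The genes were chosen with these differences known, so nothing is read from the counts. The median of the 6 genes was 0.22, beside -0.01 over all genes.

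For HDAC1 siRNA against GFP siRNA in NANOG cells, none of the 6 genes was 2-fold or even 1.5-fold apart. The share of all genes was 0.0877% higher and 0.211% lower at 2-fold, and 0.676% higher and 1.43% lower at 1.5-fold, so a count of 0 is near this background. HES1 (-0.54), NOTCH1 (-0.47) and DNER (-0.36, or -0.20 under TPM) were the lowest, JAG1 followed at -0.12, and JAG2 (0.10, or 0.28 under TPM) and NOTCH2 (0.24, or 0.42 under TPM) were higher. The median of the 6 was -0.24, beside 0.01 over all genes.

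For NANOG with HDAC1 siRNA against empty vector, DNER alone of the 6 was 2-fold higher and none was 2-fold lower, beside 0.368% and 0.807% of all genes. At 1.5-fold HES1 joined it, beside 1.78% of all genes higher and 3.44% lower. Under TPM scaling HES1 reached 1.04 here and so passed 2-fold. NOTCH1 was at -0.28, JAG2 at -0.16, NOTCH2 at -0.09 (0.05 under TPM) and JAG1 at 0.14, and the median of the 6 was 0.03. The 3 comparisons share libraries 2 by 2 and are not independent of each other.

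**Figure D4:**
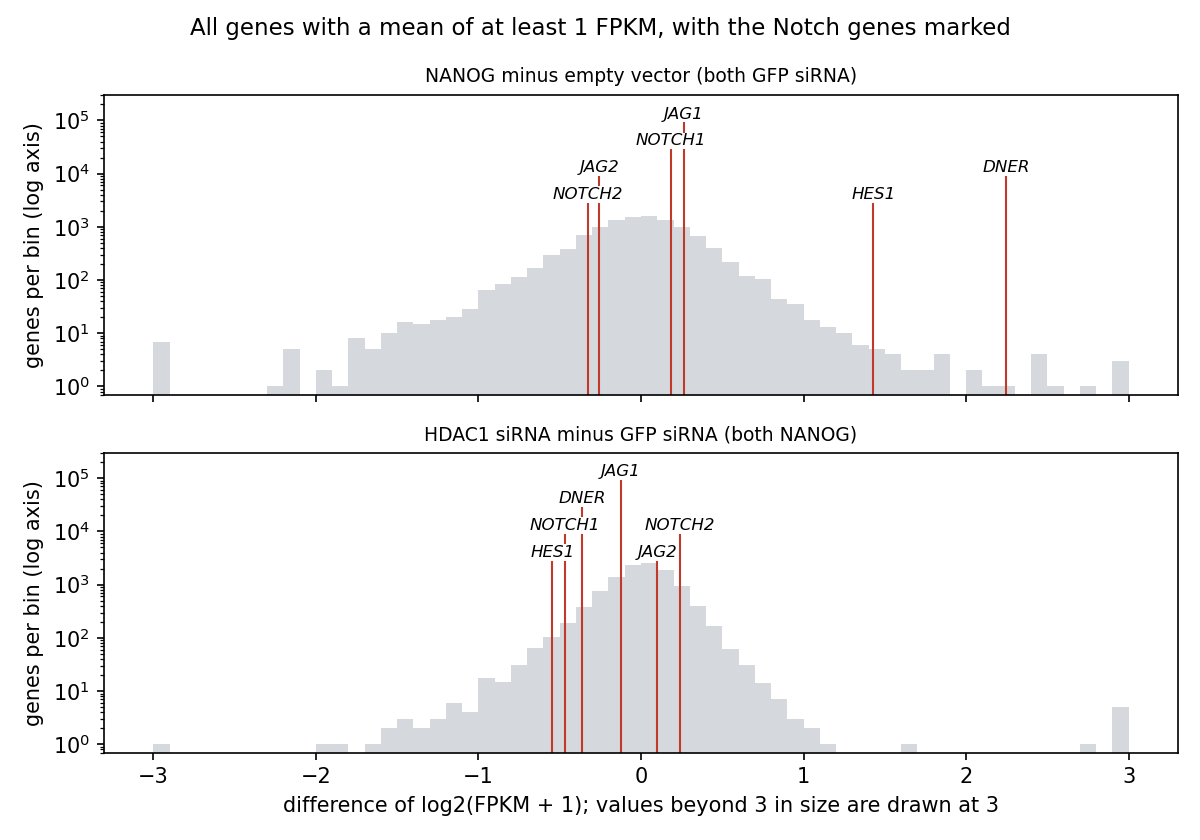
Number of genes (log axis) per bin of the log2(FPKM + 1) difference over the 11398 genes kept, for NANOG against empty vector (top) and HDAC1 siRNA against GFP siRNA (bottom), with red lines at the 6 Notch genes kept and values beyond 3 in size drawn at 3. DNER and HES1 stand in the upper tail at the top, whereas all 6 lie between -0.54 and 0.24 at the bottom.

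The genes closest in pattern to DNER and HES1 were found by the Euclidean distance over the 3 library values of log2(FPKM + 1), each gene centred on its own mean. For DNER they were IGFBP5, which encodes an IGF-binding protein (distance 0.16), the collagenase gene MMP1 (0.20), the cytochrome P450 gene CYP1B1 (0.24), SPP1, which encodes osteopontin (0.25), and the aldo-keto reductase gene AKR1C1 (0.27). IGFBP5 was at 39.6, 165 and 144 FPKM and MMP1 at 0.536, 7.86 and 5.51 FPKM in the order of libraries used above, with the empty vector first and the HDAC1 siRNA last. For HES1 they were ID3, which encodes an inhibitor of basic helix-loop-helix proteins (0.04), the proline dehydrogenase gene PRODH (0.07), the neurofilament gene NEFM (0.11), NQO1, which encodes a quinone reductase (0.15), and the interferon lambda gene IL28A (0.16). ID3 was at 16.5, 45.6 and 32.3 FPKM and NQO1 at 205, 639 and 394 FPKM. A likeness over 3 libraries rests on 2 free values per gene. AKR1C1 and IL28A have near-identical paralogs, so their values are uncertain.

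The other genes of the pathway were read from 9 lists of 120 genes in all, every one present in the files, of which 92 passed the minimum. For NANOG against empty vector 30 were above and 62 below 0, with a median of -0.12, beside 5610 above and 5787 below over all genes. At 2-fold 2 were higher, HDAC1 and CCND1, and 0 lower, beside 0.676% and 1.20% of all genes. At 1.5-fold 6 were higher and 7 lower, beside 3.47% and 5.25%. For HDAC1 siRNA against GFP siRNA 56 were above and 36 below 0 (median 0.03), beside 6082 and 5316 over all genes. At 2-fold 0 were higher and 2 lower, again HDAC1 and CCND1, beside 0.0877% and 0.211% of all genes. At 1.5-fold 0 were higher and 4 lower, beside 0.676% and 1.43%. HDAC1, the target of the siRNA, is in both of these lower counts by design. For NANOG with HDAC1 siRNA against empty vector 32 were above and 60 below 0 (median -0.09), beside 5675 and 5723 over all genes. None was 2-fold apart, beside 0.368% of all genes higher and 0.807% lower, and 1 was higher and 4 lower at 1.5-fold, beside 1.78% and 3.44%.

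Of the other ligands and receptors, 5 of 11 passed the minimum. The divergent ligand DLL3, which acts inside the cell, was at 3.90, 3.55 and 4.15 FPKM in the order of libraries used above, with the empty vector first and the HDAC1 siRNA last. DLL4, known from vessel sprouting, was at 0.351, 0.449 and 0.512 FPKM. The secreted EGF-like protein gene EGFL7 was at 6.74, 9.67 and 9.56 FPKM, a difference of 0.46 for NANOG against empty vector. DLK2, a Delta-like protein without the receptor-binding domain of the canonical ligands, was at 16.01, 17.2 and 14.7 FPKM. That was near the level of JAG2, and above it with NANOG and GFP siRNA. The matrix protein gene MFAP2 was at 1.25, 1.19 and 1.54 FPKM.

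Of 9 enzymes that add sugars to Notch EGF repeats, 8 passed the minimum. Of these, 4 were above and 4 below 0 for NANOG against empty vector, from -0.49 to 0.60. POFUT1, which adds O-fucose, was at 28.3, 29.9 and 30.2 FPKM. The fringe enzyme LFNG, which extends that fucose and alters ligand preference, was at 5.09, 8.23 and 5.98 FPKM, with differences of 0.60 and -0.40 in the first 2 comparisons. EOGT, which adds GlcNAc, went the other way, at 2.69, 1.62 and 2.47 FPKM (-0.49 and 0.40). Of the other fringe genes, RFNG was at 10.6, 11.2 and 9.49 FPKM (0.07 with NANOG). MFNG, which averaged below the minimum, was at 1.34, 0.635 and 0.673 FPKM (-0.52 with NANOG). The xylosyltransferase genes GXYLT1 and GXYLT2 differed by -0.08 and -0.10 with NANOG and by 0.29 and -0.16 with HDAC1 siRNA.

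Of the 9 receptor proteases, all measured, 2 were above and 7 below 0 for NANOG against empty vector (median -0.12). ADAM10, the sheddase that makes the ligand-dependent cut, was at 44.7, 35.5 and 36.7 FPKM and ADAM17 at 33.4, 26.7 and 27.3 FPKM. PSEN2, which encodes a catalytic subunit of gamma-secretase, was at 5.80, 10.2 and 7.54 FPKM (0.73 with NANOG and -0.40 with HDAC1 siRNA). PSEN2 had the same order of libraries as DNER and HES1, with empty vector lowest and HDAC1 siRNA in between. LFNG had it too, as did, outside the pathway, the keratin gene KRT8 (960, 1434 and 1050 FPKM). The share of all genes with this order was not counted. The gamma-secretase subunit NCSTN was at 49.5, 45.7 and 43.0 FPKM.

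Among genes of ligand and receptor trafficking and turnover, 4 of the 16 that passed were above and 12 below 0 for NANOG against empty vector (median -0.15). The ubiquitin ligase gene NEDD4 was the lowest, at 32.3 FPKM with empty vector, 15.9 FPKM in the NANOG GFP siRNA library and 23.0 FPKM in the third (-0.98 and 0.51). NUMB, an endocytic adaptor that restrains Notch, was at 38.8, 27.2 and 30.5 FPKM (-0.50 with NANOG). The Deltex family gene DTX4 was at 12.9, 8.38 and 7.81 FPKM, and NEURL1, a ligase for Notch ligands in flies, at 8.88, 12.9 and 14.2 FPKM. MIB1, which ubiquitinates ligands for endocytosis, was at 7.13, 6.13 and 6.25 FPKM and FBXW7, which marks the Notch intracellular domain for degradation, at 6.62, 7.01 and 7.06 FPKM.

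The nuclear activation complex had 2 of 11 genes above and 9 below 0 with NANOG (median -0.25). RBPJ itself was at 16.7 FPKM with empty vector, 10.6 FPKM with NANOG and GFP siRNA and 11.9 FPKM with HDAC1 siRNA (-0.61 and 0.15). It was lower in the 2 libraries in which HES1 was higher. A link between RBPJ and HES1 was not tested. The acetyltransferase genes EP300 and CREBBP differed by -0.54 and -0.40 with NANOG, and the Mastermind genes MAML1 and MAML2 by -0.35 and -0.25. MAML1 was at 17.9, 13.9 and 17.25 FPKM.

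Corepressors of RBPJ and HES proteins had 6 of 21 genes above and 15 below 0 with NANOG (median -0.21), HDAC1 (2.45) being the highest. TLE4, a Groucho-type corepressor that HES proteins recruit, was at 9.87, 4.69 and 5.32 FPKM (-0.93 with NANOG). TBL1X, a subunit of the NCOR complex, was at 10.51, 5.99 and 6.69 FPKM (-0.72). BEND6, a small corepressor of RBPJ, was at 1.46, 2.90 and 1.39 FPKM (0.66 with NANOG and -0.70 with HDAC1 siRNA), so that, like HDAC1, it had its one high value with NANOG and GFP siRNA.

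Of the other HES and HEY family and feedback genes that passed the minimum, 4 of 6 were above and 2 below 0 with NANOG (median 0.17). HES7, a repressor of the segmentation clock, was at 4.93, 5.55 and 5.56 FPKM (0.14 with NANOG). HES4 was at 39.5, 36.0 and 42.1 FPKM (-0.13 with NANOG) and HES6, which can antagonise HES1, at 1.97, 2.496 and 1.43 FPKM (0.24 and -0.53). HES2 averaged below the minimum, at 0.719, 1.17 and 0.947 FPKM (0.34 with NANOG). HES5 was at 0.0296 FPKM with NANOG and GFP siRNA and listed at 0 in the others, HEY2 was at 0.0677 to 0.0813 FPKM, and HEYL was listed at 0 in all. NRARP, a small ankyrin protein that is both a Notch target and a feedback inhibitor, was at 1.28, 2.42 and 2.13 FPKM (0.58 with NANOG and -0.13 with HDAC1 siRNA). As for DNER, HES1 and the other genes named above with this order, empty vector was the lowest library and HDAC1 siRNA lay in between. The related repressor genes BHLHE40 and BHLHE41 differed in opposite directions with NANOG, at -0.78 (59.5, 34.3 and 33.4 FPKM) and 0.20.

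Genes described as Notch targets in other cells had 5 of 11 above and 6 below 0 with NANOG (median -0.04). CCND1, which encodes cyclin D1, was at 30.5, 70.4 and 27.0 FPKM (1.18 and -1.35) and ID1, an inhibitor of basic helix-loop-helix proteins, at 16.3, 27.0 and 13.2 FPKM (0.69 and -0.99). With HDAC1 siRNA both lay below their empty vector level, unlike HES1, which remained above its empty vector level with HDAC1 siRNA. The cytokine receptor gene IL7R was at 9.01, 11.4 and 13.5 FPKM and the transcription factor gene SOX9 at 14.98, 14.6 and 10.8 FPKM.

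**Figure D5:**
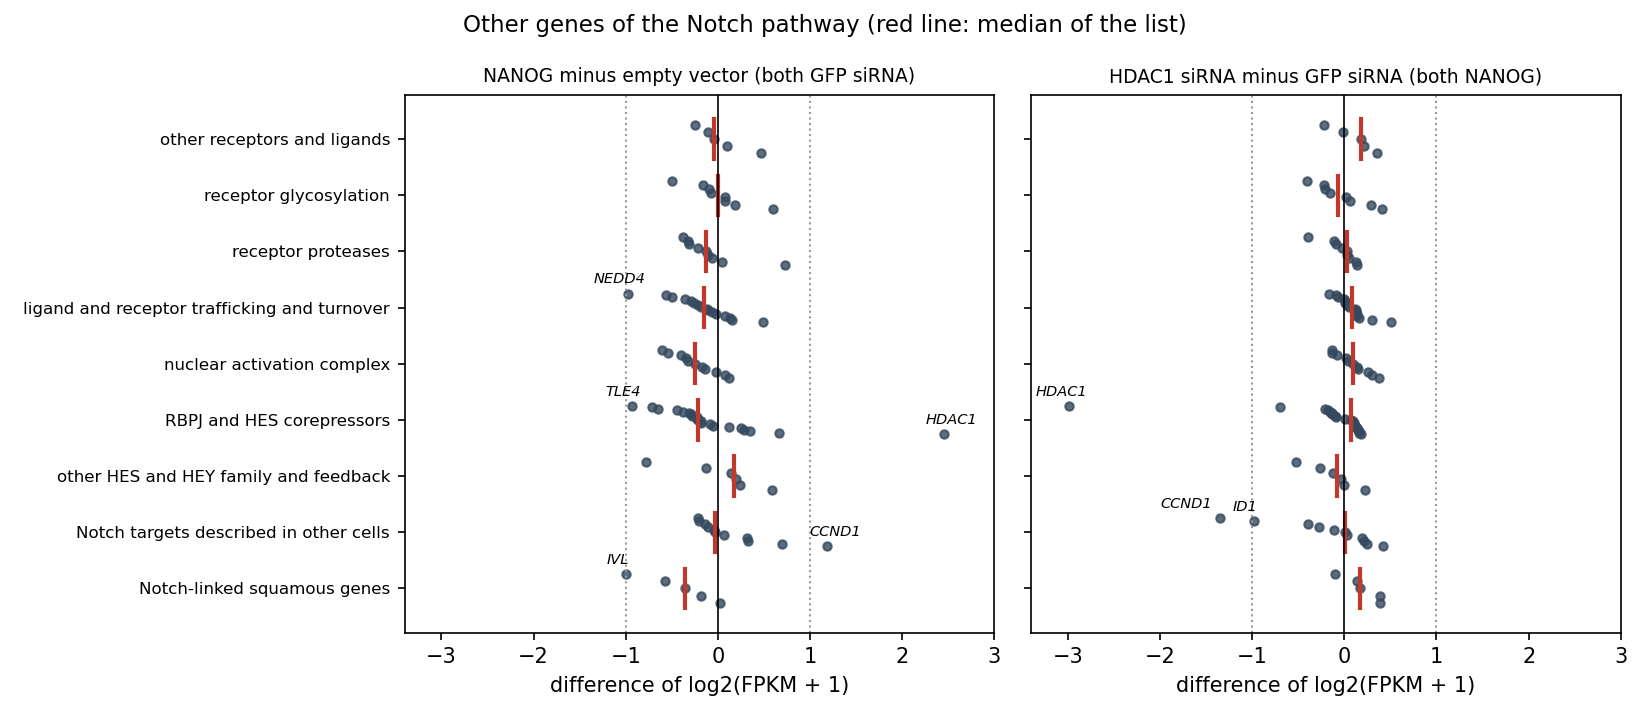
Difference of log2(FPKM + 1) of the 92 other pathway genes that averaged 1 FPKM or more, by list, for NANOG against empty vector (left) and HDAC1 siRNA against GFP siRNA (right); each point is a gene, the red line is the list's median, and dotted lines mark 2-fold. Only HDAC1 and CCND1 lie beyond the dotted lines, and the medians lie between -0.36 and 0.18. HDAC1 is the target of the siRNA.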

How the data were processed

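Total RNA of 3 CaSki libraries was analysed, 1 per group, and groups were taken from the sample titles. Libraries were made with a stranded total RNA kit per the labels' protocols. TopHat2, Cufflinks and build hg19 are named in the submitters' processing notes, without their versions or the annotation. Values are FPKM per gene symbol as the authors deposited them, so highly abundant RNAs depress the rest of a library. Small RNA symbols (1641) were left out. Differences used log2(FPKM + 1) over 11398 genes averaging 1 FPKM or more, with no test. Counts used 2-fold and 1.5-fold. The members and lists were chosen with earlier results of these data known. Named genes were the 9 members, fixed steps of the pathway, up to 4 genes per list with the largest difference, and 5 genes nearest in pattern to each member that was 2-fold apart. Some genes that this rule names are not reported here. Other names (NOTCH4's neighbours, the markers read singly, COL1A2, HES2, HES7, MFNG and RFNG) were chosen after their values were seen. EOGT, NEURL1 and RITA1 were found under the older symbols C3orf64, NEURL and C12orf52 through RefSeq synonyms. Promoters came from RefSeq on GRCh38.p14, which is not the build of the values. Alternatives were other pseudocounts, filters, scalings and thresholds, and small RNAs kept. Leaving out genes listed at 0 was chosen after seeing the data. The counting step was tested on simulated data. Python 3.11.15, numpy 2.4.6, pandas 2.3.3 and matplotlib 3.10.9 were used. Number of columns left unused was 0.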

Additional observations from a re-analysis of the deposited data

How the results depend on the processing

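No paired analysis was possible because each group had 1 library. No difference of a Notch gene that was at least 2-fold turned its direction under any alternative. DNER ranged from 2.25 to 2.75 and HES1 from 1.42 to 1.52 for NANOG against empty vector. For HDAC1 siRNA against GFP siRNA, DNER ranged from -0.39 to -0.20, HES1 from -0.57 to -0.38 and NOTCH2 from 0.21 to 0.42; under TPM DNER was at -0.20, in place of -0.36. Of 99 alternative counts 78 were within 1.5 times the reported count. Of 216 alternative values of single genes 110 differed from the main value after rounding to 2 decimals. The other filters and the keeping of small RNAs could not alter these values. Some moves were larger than the second decimal. With a pseudocount of 0.1 FPKM, NOTCH3 went from -0.10 to -0.57 for NANOG with HDAC1 siRNA against empty vector. Under TPM scaling the all-gene median went from 0.01 to 0.18 for HDAC1 siRNA against GFP siRNA and from -0.00087 to 0.13 for NANOG with HDAC1 siRNA against empty vector. It split the all-gene counts into 21 higher and 16 lower genes in place of 10 and 24, and into 70 and 77 in place of 42 and 92. Without the genes listed at 0 the first of these splits was 4 and 24.

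For NANOG against empty vector, the Notch genes 2-fold apart numbered 2, and 1 at 3-fold. The other pathway genes numbered 2, against 5 with a pseudocount of 0.1 FPKM, 5 under TPM (2 higher and 3 lower in both, in place of 2 and 0), 13 at 1.5-fold and 1 at 3-fold. All genes numbered 214, against 352 with a pseudocount of 0.1 FPKM, 994 at 1.5-fold and 53 at 3-fold. For HDAC1 siRNA against GFP siRNA, the Notch genes numbered 0 under every alternative run. The other pathway genes numbered 2, against 4 with a pseudocount of 0.1 FPKM, 4 at 1.5-fold and 1 at 3-fold. All genes numbered 34, against 68 with a pseudocount of 0.1 FPKM, 75 with small RNAs kept, 240 at 1.5-fold and 11 at 3-fold. For NANOG with HDAC1 siRNA against empty vector, the Notch genes numbered 1, against 2 under TPM and 2 at 1.5-fold. The other pathway genes numbered 0, against 5 at 1.5-fold. All genes numbered 134, against 214 with a pseudocount of 0.1 FPKM, 595 at 1.5-fold and 37 at 3-fold. The cause of these moves was not tested beyond the threshold itself. The unknown number of fragments limits NOTCH3, DLL1 and HEY1 most.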

Other observations

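Of 12 genes of squamous differentiation that Notch signalling is known to affect in keratinocytes, 5 averaged 1 FPKM or more, and for NANOG against empty vector 1 of these was above and 4 were below 0 (median -0.36). IVL, which encodes the cornified envelope protein involucrin, was at 10.2 FPKM with empty vector, 4.61 FPKM with NANOG and GFP siRNA and 6.33 FPKM with NANOG and HDAC1 siRNA. TP63, the factor of basal squamous cells, was at 1.29, 0.785 and 1.004 FPKM. KLF4 was at 46.6, 40.9 and 53.6 FPKM. KRT1, LOR, SPINK5 and DSG1 were listed at 0 in all 3 libraries, which cannot be read as their level.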
